A study of Mus musculus with 8 samples.

Results

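The T-cell receptor complex and the proteins that carry its signal inward were followed through 48 genes: the CD3 chains, the CD8 coreceptor and other surface molecules of the contact, the tyrosine kinases, the adaptors, the lipid branch, the negative regulators and phosphatases, and calcineurin with the NFAT factors. The genes were taken by name from a list of 49 names, and a gene entered where its name in the deposited table was identical to a listed one. The matching by name used no measured value, although the list was drawn up with earlier results of these data known. *Rlk* is an older name of *Txk* and had no entry of its own, so 48 of the 47493 genes in the table were members, and all 48 reached the mean of 1 FPKM that was required for testing. FPKM is the number of fragments scaled by transcript length and by library depth.

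The study compared 2 fractions of endogenous CD8+ T cells from female C57BL/6 mice aged 6 to 8 weeks, with 4 mice per fraction. It was done to define how cells with high surface IL-18Rα, the binding chain of the interleukin-18 receptor, differ from the rest. Every mouse had received 200000 B16F10 melanoma cells in the skin on day 0, cyclophosphamide (300 mg/kg) on day 3, and on day 5 Pmel-1 cells (2000000), which are Thy1.1-bearing CD8+ T cells with a transgenic receptor for a melanoma antigen. Human IL-2 (10000 IU) followed on 3 days, and weekly CD4-depleting antibody (200 μg) was given from day 10. On day 25, CD8+ cells of inguinal lymph nodes and spleen were purified by negative selection, which is meant to remove other cell types, and Thy1.1-bearing cells were taken out with beads. Cells that carried much IL-18Rα were retained on a column through a labeled antibody (IL-18Rα hi, n = 4), and the cells that ran through it were the control (flow-through, n = 4). All 8 libraries thus came from mice given cyclophosphamide, transferred cells and anti-CD4. Libraries of the 2 fractions with the same number were taken to come from the same mouse, which the labels do not state. The bead step was meant to remove the transferred cells, and how completely it did so was not measured here. The flow-through is the remainder of a bead enrichment and not a population without the receptor.

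As background, the antigen receptor of a T cell has no signaling part of its own and signals through the CD3 chains, whose tails are phosphorylated by the kinase Lck that the CD8 coreceptor brings to the contact. ZAP-70 then binds to these tails and phosphorylates the scaffold LAT and the adaptor SLP-76, and the complex built on them activates phospholipase Cγ1, Ras and the cytoskeleton. Calcium released downstream activates the phosphatase calcineurin, which lets NFAT factors enter the nucleus, while kinases such as Csk, phosphatases, ubiquitin ligases and diacylglycerol kinases restrain the signal.

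The summed FPKM of the libraries lay between 656715 and 711678, and 11706 to 12288 genes per library reached 1 FPKM. The depth in reads is not known from these values. *Il18r1*, which encodes IL-18Rα, was at 30.6 ± 6.96 FPKM (mean ± SD, n = 4) in flow-through and 111 ± 3.87 FPKM in IL-18Rα hi libraries (limma log2 fold change 1.85 ± 0.15, adjusted p = 0.00029), with no overlap between the fractions. The CD3 chains and both CD8 chains were present in every library at 123 FPKM or more. Genes listed as markers of other cells were present too, and none of those listed was at 0 in every library. The lists are not confined to other cells. The paper reports *Ncr1*, *Klrb1c*, *Klrk1*, *Blk* and *Cd40lg*, which are among them, as raised in the IL-18Rα hi CD8 T cells. Which cells the transcripts came from was not tested. Of the markers tested, 6 of 10 for NK cells, 3 of 7 for γδ T cells, 5 of 5 for CD4 T cells, 1 of 7 for B cells and 5 of 11 for myeloid cells were higher in the IL-18Rα hi fraction, and none of these lists had a lower gene. Of all genes tested, 14.1% were higher and 13.7% lower, and the B-cell count was close to that share. The marker lists gave the following sums. Their summed levels were 159 to 415 against 425 to 789.6 FPKM for NK cells and 69.4 to 97.6 against 92.7 to 199 FPKM for γδ T cells, flow-through first. They were 15.9 to 29.7 against 55.6 to 92.6 FPKM for CD4 T cells, 26.4 to 67.7 against 42.3 to 87.6 FPKM for B cells and 505 to 2657 against 803 to 3577 FPKM for myeloid cells. Of 12 erythroid markers, 3 were lower and none was higher, with sums of 1214 to 4025 FPKM in the flow-through and 333 to 1976 FPKM in the IL-18Rα hi fraction. Among defining markers, *Cd4* was at 0.310 to 1.28 FPKM in flow-through and 1.80 to 7.90 FPKM in IL-18Rα hi libraries. *Ncr1* was at 0.623 to 2.68 against 7.33 to 27.1 FPKM, flow-through first, and neither gene's fractions overlapped. In the same order, *Trdc* was at 3.67 to 12.0 against 10.3 to 24.6 FPKM and *Elane* at 110.5 to 726 against 139.6 to 833.8 FPKM, with overlap.

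One library stood apart for the members. Flow-through library 1 was the lowest of the 4 flow-through libraries for 41 of 48 members (85.4%), where this held for 43.2% of all genes tested, and the median difference of the members in it from the mean of the other 3 was -0.69 on the log2(FPKM + 1) scale, against -0.047 for all genes. The same library had the highest erythroid sum (4025 FPKM) and a *Gata1* level, an erythroid transcription factor, of 117.5 FPKM, where the 3 others of its fraction had 32.7 to 64.2 FPKM. Within its fraction it also had the lowest sums of the NK (159 FPKM), CD4 (15.9 FPKM), B-cell (26.4 FPKM) and myeloid lists (505 FPKM), but not of the γδ list. The geometric mean of *Cd3e*, *Cd3d* and *Cd3g* was 145 FPKM in it. The 3 others of its fraction had 221.5 to 271 FPKM and the IL-18Rα hi libraries 263 to 278 FPKM. IL-18Rα hi library 1 had the highest erythroid sum of its fraction (1976 FPKM) and also its highest CD3 mean (278 FPKM). In RNA from bulk cells, fewer T cells and less of these transcripts per T cell cannot be told apart. Each result was therefore also computed without this library and, as CD3 scaling, with every library scaled to its own geometric mean of the 3 CD3 genes, and the part of other cells in the differences was not tested otherwise.

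Members of the receptor pathway were higher in the IL-18Rα hi fraction far more often than lower. At a limma adjusted p under 0.05, 20 of 48 members (41.7%) were higher, where 14.1% of the 12166 genes tested were, and none was lower, where 13.7% of all genes were. At an unadjusted p under 0.05, 26 members were higher and 2 lower. The median log2 fold change of the members was 0.36, against -0.018 for all genes tested, and 43 of 48 values were above 0. The libraries of the fractions did not overlap for 30 higher members (62.5%) and 1 lower member (2.08%), where the shares of all genes were 16.4% and 15.9%. Within mice, 33 members were higher in the IL-18Rα hi fraction in 4 of 4 mice, and 2, *Sos1* and *Rcan1*, were lower in 4 of 4. Shares of all genes were not computed for the counts within mice, at an unadjusted p or of values above 0. These counts therefore describe the members only.

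**Figure D1:**
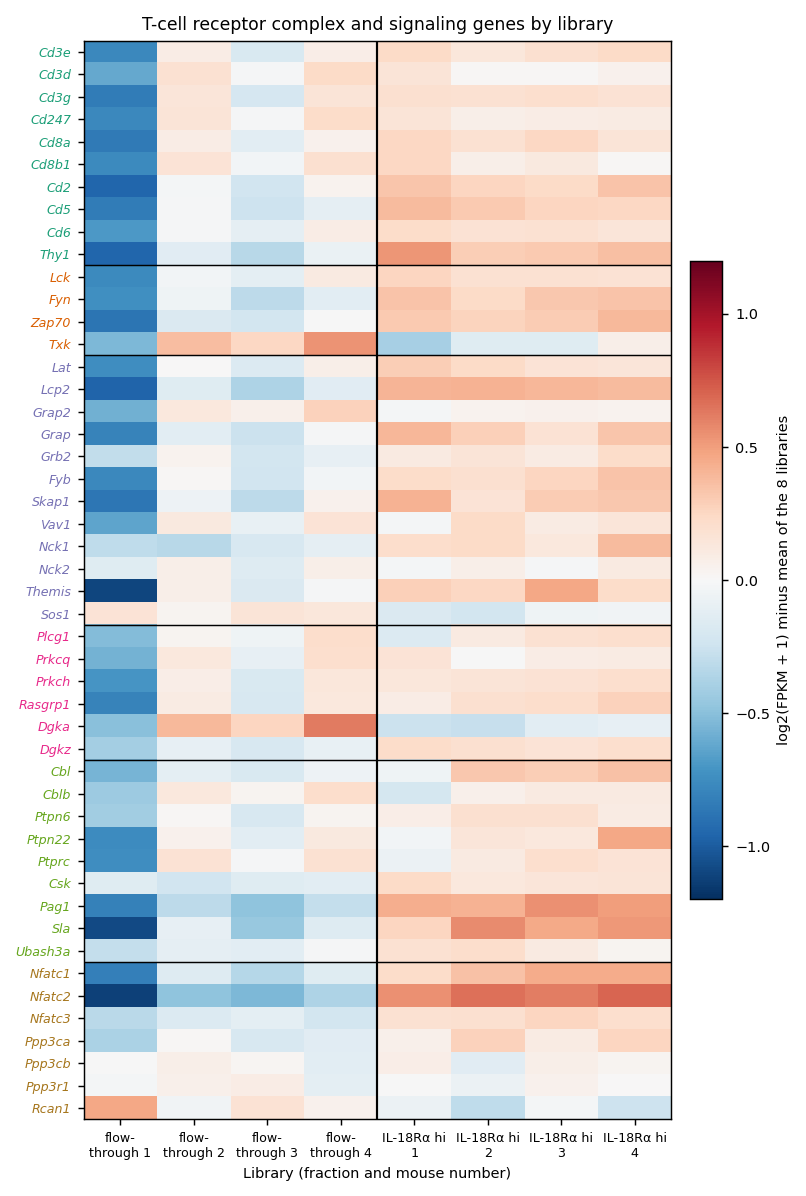
Level of each of the 48 members (vertical axis, grouped by role and colored by group from receptor to calcineurin and NFAT) in each of the 8 libraries (horizontal axis), as log2(FPKM + 1) minus the gene's mean over the libraries. Flow-through library 1 is the lowest flow-through library for 41 of the 48 genes, and *Nfatc2*, *Pag1* and *Sla* have the largest differences between the fractions among the 48.

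With the mouse as a block, 24 members were higher and 1 lower, where 22.2% and 22.7% of all genes were, and all 20 calls made without the block were among them. The added calls were *Cd2*, *Themis*, *Ptpn6* and *Ptpn22*, all higher, and *Rcan1*, lower. Without flow-through library 1, 20 members were higher and 2 lower, where 14.1% and 13.1% of all genes were. *Grb2* (limma adjusted p = 0.054) and *Ubash3a* (limma adjusted p = 0.053) were then no longer called, *Cd2* and *Themis* were called higher, and *Txk* and *Dgka* were called lower. Of the 20 calls, 11 held in all 8 fits that left out 1 library, and 9, those of *Cd5*, *Zap70*, *Grap*, *Grb2*, *Fyb*, *Skap1*, *Cbl*, *Ubash3a* and *Ppp3ca*, were lost in 4 to 7 of them. Without the filter on low genes, 7 of these 9 were lost (limma adjusted p = 0.051 to 0.087), the exceptions being *Grb2* and *Ubash3a*. The spread of the members was wider in the flow-through, where the median coefficient of variation was 23.0% over 4 libraries and 8.40% over libraries 2 to 4, than in the IL-18Rα hi fraction, where it was 4.80%. The median log2 fold change of the members fell to 0.21 without that library.

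**Figure D2:**
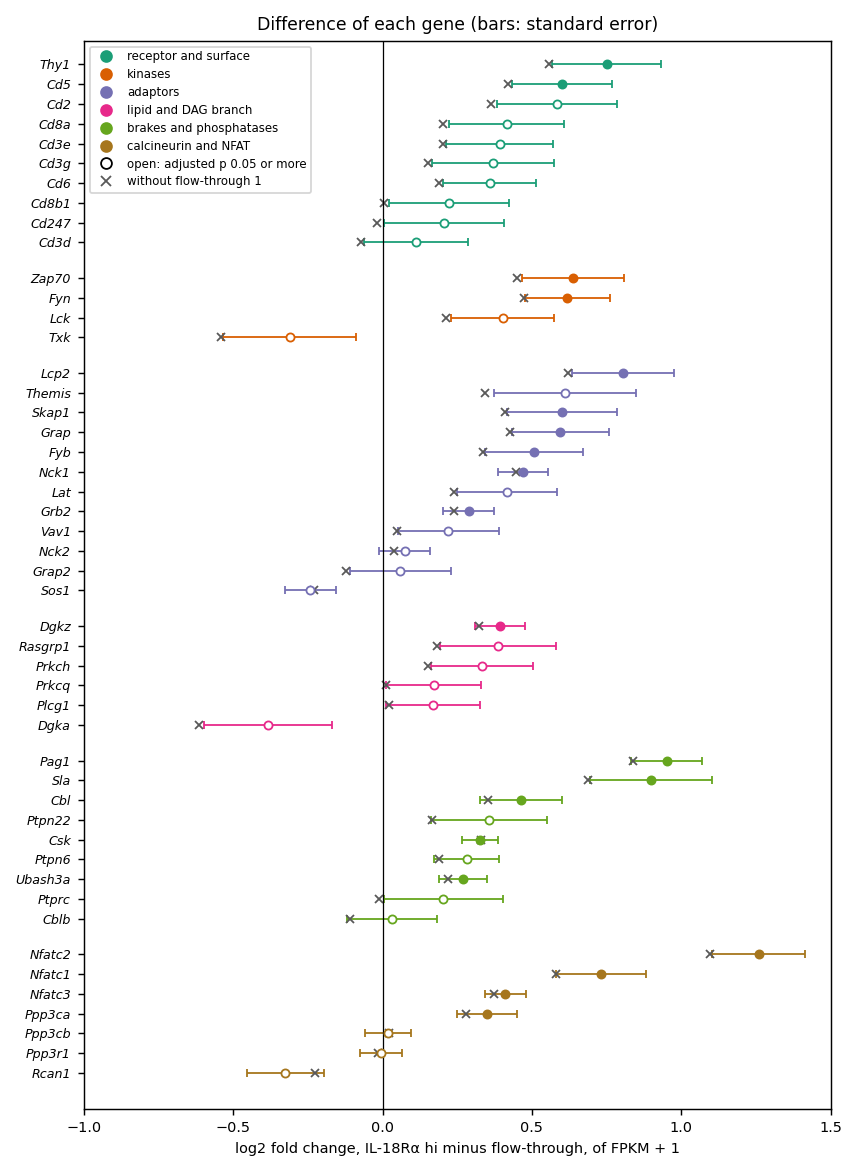
Log2 fold change of FPKM + 1 (horizontal axis, IL-18Rα hi minus flow-through, n = 4 mice) for each member (vertical axis, by role), with bars of 1 SE from limma, filled points for an adjusted p under 0.05 and crosses for the value without flow-through library 1. The crosses of most members lie to the left of their points, and those of *Txk* and *Dgka* lie at -0.54 and -0.61.

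None of the CD3 chains passed the test. Values are given in the order of mice 1 to 4 throughout, and log2 fold changes, of FPKM + 1, with their SE. *Cd3e*, a CD3 chain that pairs with the others in the receptor complex, was at 123, 224, 186 and 224 FPKM in flow-through libraries and 248, 232, 241 and 247 FPKM in IL-18Rα hi libraries (limma log2 fold change 0.39 ± 0.18, adjusted p = 0.13). *Cd3g* was at 173, 344, 269 and 345 FPKM in flow-through libraries and 353, 352, 356 and 349 FPKM in IL-18Rα hi libraries (limma log2 fold change 0.37 ± 0.20, adjusted p = 0.2). *Cd3d* was at 143, 249, 217 and 257 FPKM in flow-through libraries and 244, 222, 221 and 227 FPKM in IL-18Rα hi libraries (limma log2 fold change 0.11 ± 0.17, adjusted p = 0.65). The flow-through library of mouse 1 was the low one for each of the 3 chains. Of these chains, only *Cd3d* had fractions that overlapped. Without flow-through library 1 the log2 fold changes were 0.20, 0.15 and -0.073 for *Cd3e*, *Cd3g* and *Cd3d*. None of the 3 was called in either fit. The 3 genes lie side by side on mm10 chromosome 9, *Cd3g* at 44969572 to 44980431, *Cd3d* at 44981786 to 44987339 and *Cd3e* at 44998740 to 45009627. *Cd247*, which encodes the ζ chain that binds ZAP-70, was at 63.8, 122, 108 and 128 FPKM in flow-through libraries and 122, 115, 116 and 118 FPKM in IL-18Rα hi libraries (limma log2 fold change 0.21 ± 0.20, adjusted p = 0.47). Its annotated exons share 56.4% of their bases with exons of *Pou2f1* on the opposite strand, so that reads of the pair cannot be told apart without strand, and *Pou2f1* itself was estimated at 3.55 to 4.79 FPKM.

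The CD8 chains differed most between the fractions in mouse 1. *Cd8a*, the chain of CD8 that binds Lck, was at 179, 345, 297 and 336 FPKM in flow-through libraries and 385, 366, 384 and 361 FPKM in IL-18Rα hi libraries (limma log2 fold change 0.41 ± 0.19, adjusted p = 0.14). *Cd8b1*, its partner chain in conventional CD8 T cells, was at 336, 638, 558 and 654 FPKM in flow-through libraries and 678, 598, 621 and 575 FPKM in IL-18Rα hi libraries (limma log2 fold change 0.22 ± 0.20, adjusted p = 0.43). The IL-18Rα hi libraries all lay above the flow-through libraries for *Cd8a* and overlapped them for *Cd8b1*, and neither gene was called. Both genes lie on chromosome 6, *Cd8b1* at 71322788 to 71337494 and *Cd8a* at 71373427 to 71379173.

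Of the 10 receptor and surface genes, 2 were higher, a share close to the 14.1% of all genes. *Thy1*, the Thy-1 antigen of the T-cell surface, was the most abundant of the 48 members in the IL-18Rα hi fraction and rose from 391 ± 96.0 to 643 ± 48.5 FPKM (limma log2 fold change 0.75 ± 0.18, adjusted p = 0.018). Its libraries were at 256, 451, 391 and 468 FPKM in flow-through libraries and 714, 608, 615 and 634 FPKM in IL-18Rα hi libraries. Every IL-18Rα hi library lay above every flow-through library, and the value does not separate the endogenous allele from the Thy1.1 of transferred cells. *Cd5*, an inhibitory receptor whose level follows the strength of receptor signaling, rose from 71.2 ± 16.7 to 106 ± 4.67 FPKM (limma log2 fold change 0.60 ± 0.17, adjusted p = 0.03). It was at 47.5, 85.3, 72.3 and 79.8 FPKM in flow-through libraries and 112, 107, 103 and 102 FPKM in IL-18Rα hi libraries. *Thy1* was called in all 8 fits that left out 1 library, whereas *Cd5* lost its call without flow-through library 3 or any 1 of the IL-18Rα hi libraries (limma adjusted p up to 0.073). *Cd2*, an adhesion receptor that costimulates T cells, had a log2 fold change of 0.58 (limma adjusted p = 0.061, with the mouse as a block 0.03), and *Cd6*, a relative and chromosomal neighbor of *Cd5*, one of 0.36 (limma adjusted p = 0.12).

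Among the 4 tyrosine kinases, *Zap70* and *Fyn* were higher, where 14.1% of all genes were. Under CD3 scaling 0 of the 4 were higher, where 4.87% of all genes were. *Zap70* (chromosome 1, 36761798 to 36782818, plus strand), the kinase that docks on phosphorylated CD3 tails, was at 41.1, 67.6, 65.5 and 76.3 FPKM in flow-through libraries and 95.04, 92.4, 94.9 and 100.1 FPKM in IL-18Rα hi libraries (limma log2 fold change 0.64 ± 0.17, adjusted p = 0.026). *Fyn* (chromosome 10, 39368855 to 39565381, plus strand), a Src-family kinase that acts beside Lck, was at 64.5, 104, 87.0 and 99.0 FPKM in flow-through libraries and 138, 127, 136 and 138 FPKM in IL-18Rα hi libraries (limma log2 fold change 0.62 ± 0.14, adjusted p = 0.014). For both genes every IL-18Rα hi library exceeded every flow-through library, and NK cells, whose markers were also higher after the negative selection, are known to express both. Their part in these differences was not tested. *Lck* (chromosome 4, 129548344 to 129573641, minus strand), the kinase that starts the cascade, was at 222, 369.9, 347 and 407 FPKM in flow-through libraries and 453, 429, 428 and 426 FPKM in IL-18Rα hi libraries (limma log2 fold change 0.40 ± 0.17, adjusted p = 0.12). The fractions did not overlap for *Lck* either, and the test did not pass. The call of *Fyn* held in 8 of 8 fits that left out 1 library, and that of *Zap70* was lost without the same 5 libraries as that of *Cd5* (limma adjusted p up to 0.069).

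*Txk*, a Tec-family kinase that phosphorylates phospholipase Cγ1, had the opposite sign. It was at 15.5, 30.1, 27.4 and 33.8 FPKM in flow-through libraries and 17.2, 20.7, 20.6 and 24.1 FPKM in IL-18Rα hi libraries (limma log2 fold change -0.31 ± 0.22, adjusted p = 0.32). In mice 2 to 4 the IL-18Rα hi library was the lower of the pair, and in mouse 1, whose flow-through library was low for most members, it was the higher. Without flow-through library 1 its log2 fold change was -0.54 (limma adjusted p = 0.014), and under CD3 scaling -0.59 (limma adjusted p = 0.043, with the mouse as a block 0.071).

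The 12 adaptors and exchange factors held 6 higher genes and no lower one, where 14.1% and 13.7% of all genes were higher and lower. Under CD3 scaling 1 of the 12 was higher, where 4.87% of all genes were. *Lcp2* (chromosome 11, 34046920 to 34092295, plus strand) encodes SLP-76, on which the signaling complex is assembled, and rose from 63.5 ± 15.3 to 109 ± 1.18 FPKM (limma log2 fold change 0.80 ± 0.17, adjusted p = 0.011). Its libraries were at 41.8, 74.0, 63.5 and 74.6 FPKM in flow-through libraries and 109.6, 109.9, 108 and 107 FPKM in IL-18Rα hi libraries, so that the 4 IL-18Rα hi values lay within 3 FPKM of each other and well above the highest flow-through value. *Fyb*, an adaptor that binds SLP-76, and *Skap1*, which binds the Fyb protein, link the receptor to integrins. They had log2 fold changes of 0.51 ± 0.16 (limma adjusted p = 0.048) and 0.60 ± 0.19 (limma adjusted p = 0.043). *Fyb* was at 59.7, 104, 87.5 and 100.5 FPKM in flow-through libraries and 119.5, 118, 123 and 130.3 FPKM in IL-18Rα hi libraries. *Skap1* was at 78.0, 137, 115 and 148 FPKM in flow-through libraries and 192, 161, 177 and 179.5 FPKM in IL-18Rα hi libraries. Neither gene's libraries overlapped between the fractions, but both calls were lost under quantile normalization (limma adjusted p = 0.066 and 0.073) and without those 5 libraries.

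*Nck1*, an adaptor to the actin cytoskeleton, was nearly equal in the flow-through libraries, flow-through library 1 included. It was at 21.6, 21.1, 23.4 and 24.9 FPKM in flow-through libraries and 31.2, 31.7, 29.4 and 35.2 FPKM in IL-18Rα hi libraries (limma log2 fold change 0.47 ± 0.084, adjusted p = 0.0058), with every IL-18Rα hi library above every flow-through library. Under CD3 scaling the log2 fold change of *Nck1* was 0.19 (limma adjusted p = 0.50), and without flow-through library 1 as well it was 0.36 (limma adjusted p = 0.071). Its paralog *Nck2* had a log2 fold change of 0.074 ± 0.086 without scaling (limma adjusted p = 0.54), and the 2 genes have overlapping roles. *Grap*, an adaptor related to Grb2, was at 50.4, 81.2, 74.1 and 88.0 FPKM in flow-through libraries and 117, 108, 99.9 and 112 FPKM in IL-18Rα hi libraries (limma log2 fold change 0.60 ± 0.16, adjusted p = 0.027). *Grb2*, which brings the Ras activator Sos to LAT, was at 69.7, 88.1, 73.4 and 80.1 FPKM in flow-through libraries and 92.5, 95.4, 91.9 and 100 FPKM in IL-18Rα hi libraries (limma log2 fold change 0.29 ± 0.085, adjusted p = 0.037), and its direction was lost under CD3 scaling, where its log2 fold change was -0.002. Under CD3 scaling without flow-through library 1 the log2 fold change of *Grb2* was 0.15 (limma adjusted p = 0.29). The call of *Grap* was lost in 4 of 8 fits that left out 1 library (limma adjusted p up to 0.069). That of *Grb2* was lost in 7 of 8 (limma adjusted p up to 0.10) and under quantile normalization (limma adjusted p = 0.061).

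*Lat*, the membrane scaffold of the pathway, was at 219, 369, 327 and 385 FPKM in flow-through libraries and 450.2, 432, 412 and 405 FPKM in IL-18Rα hi libraries (limma log2 fold change 0.42 ± 0.17, adjusted p = 0.095). The fractions did not overlap, and the difference passed the test neither with the block nor without it (limma adjusted p = 0.065 with the block). *Themis*, a protein first known for its role in thymocyte selection, had a log2 fold change of 0.61 (limma adjusted p = 0.088, with the block 0.042). *Grap2*, the partner of SLP-76 known as Gads, and *Vav1*, an exchange factor that acts on the cytoskeleton, had values of 0.060 (limma adjusted p = 0.81) and 0.22 (limma adjusted p = 0.35). *Sos1*, the Ras exchange factor, was the only member whose IL-18Rα hi libraries all lay below the flow-through libraries, at 5.70, 5.12, 5.66 and 5.57 FPKM in flow-through libraries and 4.31, 4.15, 4.79 and 4.81 FPKM in IL-18Rα hi libraries (limma log2 fold change -0.24 ± 0.085, adjusted p = 0.064).

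In the lipid branch, 1 of 6 genes was higher, a share close to the 14.1% of all genes, and only 1 of the 2 diacylglycerol kinases was called. Diacylglycerol, released by phospholipase Cγ1, recruits RasGRP1 and protein kinase C, and diacylglycerol kinases remove it. *Dgkz* (chromosome 2, 91932824 to 91975864, minus strand), which encodes the ζ kinase, was at 119.5, 149, 139 and 149.8 FPKM in flow-through libraries and 186, 182, 178 and 184 FPKM in IL-18Rα hi libraries (limma log2 fold change 0.39 ± 0.084, adjusted p = 0.011), with no overlap between the fractions. *Dgka* (chromosome 10, 128720134 to 128744855, minus strand), which encodes the α kinase, was at 102, 189, 173 and 223 FPKM in flow-through libraries and 121, 119, 132 and 135 FPKM in IL-18Rα hi libraries (limma log2 fold change -0.38 ± 0.21, adjusted p = 0.21). The IL-18Rα hi libraries of *Dgka* lay below flow-through libraries 2 to 4 and above library 1, and in 3 of 4 mice the IL-18Rα hi library was the lower. Without flow-through library 1 the log2 fold change of *Dgka* was -0.61 (limma adjusted p = 0.0039). That of *Dgkz* under CD3 scaling was 0.10 (limma adjusted p = 0.66), and without flow-through library 1 as well it was 0.23 (limma adjusted p = 0.093).

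The other genes of this branch were not called. *Plcg1*, the phospholipase, had a log2 fold change of 0.17 (SE 0.16), and *Prkcq*, the protein kinase C θ of the T-cell contact, one of 0.17 (SE 0.16). *Prkch*, which encodes protein kinase C η, had one of 0.33 (SE 0.17), and *Rasgrp1*, the Ras activator, one of 0.39 (SE 0.19). The limma adjusted p of these 4 genes ran from 0.17 to 0.45, and without flow-through library 1 their log2 fold changes lay between 0.011 and 0.18.

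Of 9 brakes and phosphatases, 5 were higher and none was lower, where 14.1% and 13.7% of all genes were, with a median log2 fold change of 0.33. Under CD3 scaling 2 of the 9 were higher, where 4.87% of all genes were. *Pag1* (chromosome 3, 9687479 to 9833679, minus strand), the membrane adaptor that anchors Csk, rose from 12.5 ± 2.13 to 24.9 ± 1.04 FPKM, a ratio of means of 1.99 (limma log2 fold change 0.95 ± 0.12, adjusted p = 0.0016). Its libraries were at 9.59, 13.9, 12.3 and 14.2 FPKM in flow-through libraries and 24.1, 23.9, 26.1 and 25.3 FPKM in IL-18Rα hi libraries, with the lowest IL-18Rα hi library well above the highest flow-through library. *Sla* (chromosome 15, 66780819 to 66831829, minus strand), the Src-like adaptor SLAP that promotes degradation of the receptor's ζ chain, rose from 58.9 ± 16.6 to 107 ± 9.95 FPKM (limma log2 fold change 0.90 ± 0.20, adjusted p = 0.014). It was at 36.3, 72.7, 56.6 and 69.8 FPKM in flow-through libraries and 93.3, 116, 108 and 112 FPKM in IL-18Rα hi libraries. *Csk* itself, the kinase that switches off Lck and Fyn, was at 149, 141, 150.1 and 152 FPKM in flow-through libraries and 194, 180.5, 183 and 185 FPKM in IL-18Rα hi libraries (limma log2 fold change 0.33 ± 0.061, adjusted p = 0.007). It was among the few members for which flow-through library 1 was not the lowest of its fraction, and its log2 fold change without that library was 0.33. Under CD3 scaling the log2 fold change of *Csk* was 0.034 (limma adjusted p = 0.91). Under CD3 scaling without flow-through library 1 it was 0.24 (limma adjusted p = 0.14).

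The ubiquitin ligases of the Cbl family differed from each other. *Cbl*, which marks active receptor and kinases for degradation, was at 13.3, 18.4, 17.6 and 19.2 FPKM in flow-through libraries and 19.4, 25.4, 25.0 and 26.0 FPKM in IL-18Rα hi libraries (limma log2 fold change 0.46 ± 0.14, adjusted p = 0.037). *Cblb*, its paralog that limits activation without CD28, was at 10.1, 15.4, 14.3 and 16.4 FPKM in flow-through libraries and 12.0, 14.6, 15.2 and 15.1 FPKM in IL-18Rα hi libraries (limma log2 fold change 0.032 ± 0.15, adjusted p = 0.89). For *Cbl* the IL-18Rα hi library of mouse 1 was barely above the highest flow-through library and the other 3 stood higher, and the call was lost in 4 of 8 fits that left out 1 library (limma adjusted p up to 0.098). For *Cblb* the fractions overlapped. *Ubash3a*, a phosphatase-like suppressor of ZAP-70 signaling, was at 28.8, 32.7, 32.3 and 34.9 FPKM in flow-through libraries and 40.2, 41.1, 38.1 and 36.3 FPKM in IL-18Rα hi libraries (limma log2 fold change 0.27 ± 0.080, adjusted p = 0.038), and its log2 fold change under CD3 scaling was -0.018. Under CD3 scaling without flow-through library 1 that value was 0.13 (limma adjusted p = 0.41). The call of *Ubash3a* was lost in 7 of 8 fits that left out 1 library (limma adjusted p up to 0.11). The phosphatases *Ptpn6* (SHP-1), *Ptpn22* and *Ptprc* (CD45, which keeps Lck active) had log2 fold changes of 0.28, 0.36 and 0.20, with limma adjusted p = 0.083, 0.2 and 0.47. With the mouse as a block the limma adjusted p of *Ptpn6* was 0.036 and that of *Ptpn22* 0.032.

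The 7 genes of calcineurin and NFAT held the largest difference of all 48. *Nfatc2* (chromosome 2, 168476410 to 168601657, minus strand) encodes NFAT1, which is kept in resting T cells and moves to the nucleus on calcium signals. It was at 5.95, 9.79, 9.36 and 10.7 FPKM in flow-through libraries and 21.04, 22.8, 22.1 and 23.6 FPKM in IL-18Rα hi libraries. The lowest IL-18Rα hi library was well above the highest flow-through library, and flow-through library 1 was again the lowest. The mean rose from 8.95 ± 2.07 to 22.4 ± 1.07 FPKM, a ratio of means of 2.50 (limma log2 fold change 1.26 ± 0.15, adjusted p = 0.0015). In mice 1 to 4 the IL-18Rα hi library was higher by 1.66, 1.14, 1.16 and 1.07 on the log2(FPKM + 1) scale, and without flow-through library 1 the log2 fold change was 1.10 (limma adjusted p = 0.00019).

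The other NFAT genes of the list were higher by less. *Nfatc1*, which encodes NFAT2, a form that rises with activation, was at 22.03, 35.5, 30.9 and 35.6 FPKM in flow-through libraries and 46.4, 50.8, 54.1 and 54.2 FPKM in IL-18Rα hi libraries (limma log2 fold change 0.73 ± 0.15, adjusted p = 0.0094). *Nfatc3*, which encodes NFAT4, was at 42.9, 48.0, 49.6 and 46.0 FPKM in flow-through libraries and 61.3, 61.5, 64.4 and 61.9 FPKM in IL-18Rα hi libraries (limma log2 fold change 0.41 ± 0.068, adjusted p = 0.0043), and its flow-through libraries were close together, library 1 included. Neither gene's fractions overlapped, and both calls held in all 8 fits that left out 1 library. Under CD3 scaling neither was called, with log2 fold changes of 0.45 for *Nfatc1* and 0.12 for *Nfatc3* (limma adjusted p = 0.072 and 0.65). Under CD3 scaling without flow-through library 1 they were 0.49 and 0.28 (limma adjusted p = 0.012 and 0.11). Of the calcineurin subunits, *Ppp3ca*, the α catalytic subunit, was at 18.2, 24.3, 20.9 and 21.8 FPKM in flow-through libraries and 25.2, 29.3, 25.8 and 29.1 FPKM in IL-18Rα hi libraries (limma log2 fold change 0.35 ± 0.10, adjusted p = 0.033), a call that was lost in 5 of 8 fits that left out 1 library (limma adjusted p up to 0.094). The β catalytic subunit *Ppp3cb* had a log2 fold change of 0.019 ± 0.078 (limma adjusted p = 0.88) and the regulatory subunit *Ppp3r1* one of -0.0055 ± 0.070 (limma adjusted p = 0.96). *Ppp3r1* shares 14.3% of its exonic bases with *Wdr92* on the same strand.

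*Rcan1*, an inhibitor of calcineurin that NFAT itself induces, was at 8.08, 5.39, 6.40 and 5.82 FPKM in flow-through libraries and 5.24, 4.33, 5.46 and 4.53 FPKM in IL-18Rα hi libraries (limma log2 fold change -0.33 ± 0.13, adjusted p = 0.091). Its flow-through library 1 was the highest of the 8 libraries, contrary to most members, and the IL-18Rα hi library was the lower of the pair in 4 of 4 mice. With the mouse as a block it was called lower (limma adjusted p = 0.027).

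**Figure D3:**
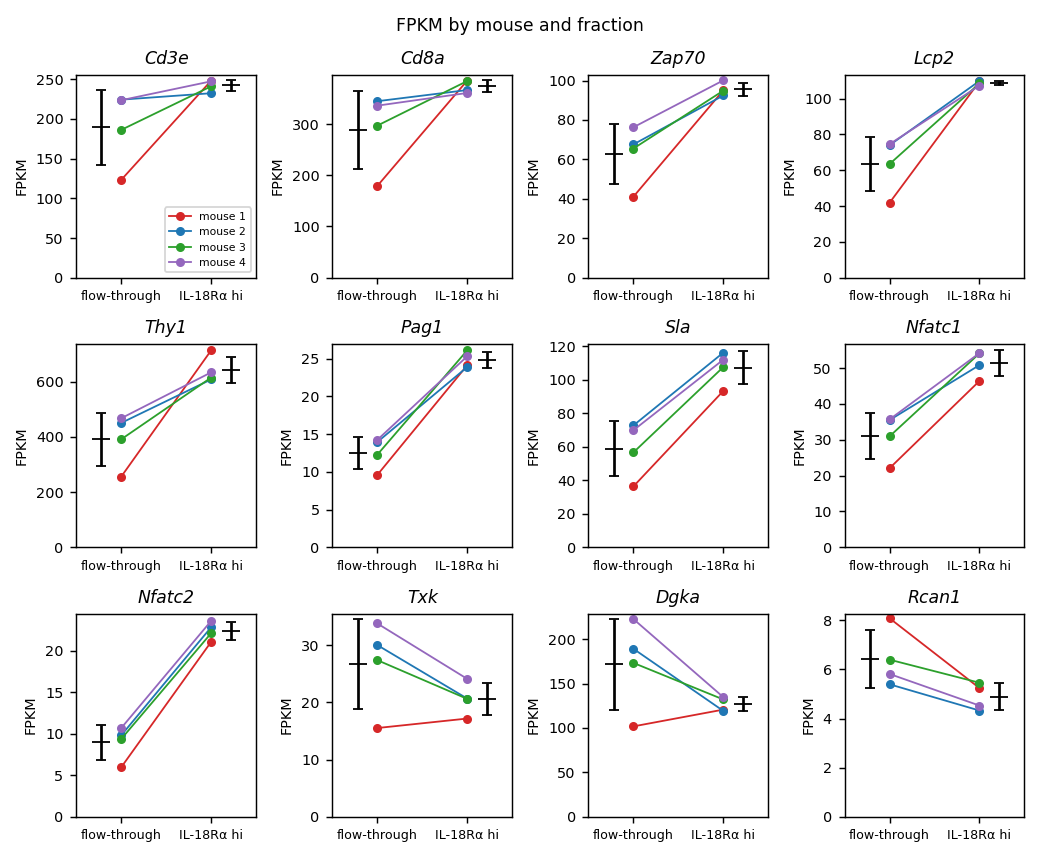
FPKM (vertical axis, from 0) of 12 members in the flow-through and the IL-18Rα hi fraction of each mouse (colored points joined by lines, 1 color per mouse), with black bars for the mean ± SD of 4 libraries. *Nfatc2*, *Pag1* and *Lcp2* are higher in every mouse, *Rcan1* is lower in every mouse, and *Txk* and *Dgka* are lower in mice 2 to 4 only.

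The promoter sequences of 4 members are shown to set the gene with the largest rise beside *Dgka* and *Txk*, which were lower without flow-through library 1, and beside *Cd3e*, which was not called. Each is the 250 bases before the transcription start of RefSeq (GRCm38.p6, the assembly named mm10), printed 5′ to 3′ on the gene's strand, and capitals mark GGAAA on either strand, the core of NFAT sites, which is read as TTTCC where it lies on the other strand. For *Dgka* the RefSeq start lies upstream of the GENCODE start. Of the members, 37 matched an entry of the RefSeq windows, and *Pag1* and *Sla* are named only.
*Nfatc2*, chr2:168601658-168601907, minus strand: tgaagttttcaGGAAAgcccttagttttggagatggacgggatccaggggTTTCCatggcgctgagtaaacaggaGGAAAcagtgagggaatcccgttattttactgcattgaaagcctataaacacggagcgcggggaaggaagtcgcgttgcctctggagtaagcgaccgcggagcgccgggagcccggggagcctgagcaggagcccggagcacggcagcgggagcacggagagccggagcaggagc
*Dgka*, chr10:128745085-128745334, minus strand: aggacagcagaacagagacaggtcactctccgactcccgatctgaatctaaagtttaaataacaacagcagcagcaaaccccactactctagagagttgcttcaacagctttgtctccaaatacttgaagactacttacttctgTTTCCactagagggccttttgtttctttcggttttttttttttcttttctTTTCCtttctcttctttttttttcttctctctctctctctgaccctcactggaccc
*Txk*, chr5:72752778-72753027, minus strand: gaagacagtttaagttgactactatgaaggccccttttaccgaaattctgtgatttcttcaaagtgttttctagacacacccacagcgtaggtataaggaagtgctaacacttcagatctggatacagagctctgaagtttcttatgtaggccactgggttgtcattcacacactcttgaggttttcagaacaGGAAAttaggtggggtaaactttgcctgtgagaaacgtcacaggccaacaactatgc
*Cd3e*, chr9:45009612-45009861, minus strand: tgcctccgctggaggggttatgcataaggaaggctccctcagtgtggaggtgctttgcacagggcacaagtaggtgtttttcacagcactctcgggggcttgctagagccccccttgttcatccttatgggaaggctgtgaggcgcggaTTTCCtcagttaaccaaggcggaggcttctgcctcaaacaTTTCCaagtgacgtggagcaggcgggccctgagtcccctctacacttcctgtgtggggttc

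The window of *Nfatc2* held 3 matches, those of *Dgka* and *Cd3e* 2 each, and that of *Txk* 1. At least 1 match was present in 24 of the 37 member windows (64.9%) and in 55.6% of all 32851 windows of the same length, so that the core was nearly as common elsewhere. Searched the same way on both strands, the RUNX core TGTGGT was in 2 member windows (5.41%) and 14.0% of all windows, and the ETS core CCGGAAG was in none of the member windows and 6.91% of all. A match of letters is a description of the window and was not tied to any difference in level.

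How much of the shift was shared with the receptor itself was examined by CD3 scaling. After each library was scaled to its geometric mean of *Cd3e*, *Cd3d* and *Cd3g*, for which no scaled result is given, the median over all genes moved from -0.018 to -0.28 on the log2 scale. That of the members moved from 0.36 to 0.073. Then 5 members were higher and 2 lower, where 4.87% and 6.43% of all genes were. The higher ones were *Nfatc2* with a log2 fold change of 0.99 (limma adjusted p = 0.0027), *Pag1* with 0.67 (limma adjusted p = 0.019), *Sla* with 0.61 (limma adjusted p = 0.03), *Lcp2* with 0.52 (limma adjusted p = 0.035) and *Thy1* with 0.46 (limma adjusted p = 0.044). All 5 had been called without scaling. The lower ones were *Dgka* with -0.67 (limma adjusted p = 0.018) and *Txk* with -0.59.

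The scaled calls were fewer with the mouse as a block and more without flow-through library 1, both fits being added after the data had been seen. With the block, *Nfatc2*, *Pag1* and *Sla* were higher and *Dgka* was lower, which makes 3 higher and 1 lower member, where 5.79% and 15.7% of all genes were. Without flow-through library 1, 12 scaled members were higher and the same 2 were lower, where 8.33% and 11.9% of all genes were. *Zap70* and *Fyn* were at 0.35 and 0.33 under scaling over 8 libraries (limma adjusted p = 0.12 and 0.14), and at 0.36 and 0.38 without flow-through library 1 (limma adjusted p = 0.027 and 0.014). *Nfatc1* was at 0.45 under scaling over 8 libraries (limma adjusted p = 0.072), and at 0.49 without flow-through library 1 (limma adjusted p = 0.012).

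**Figure D4:**
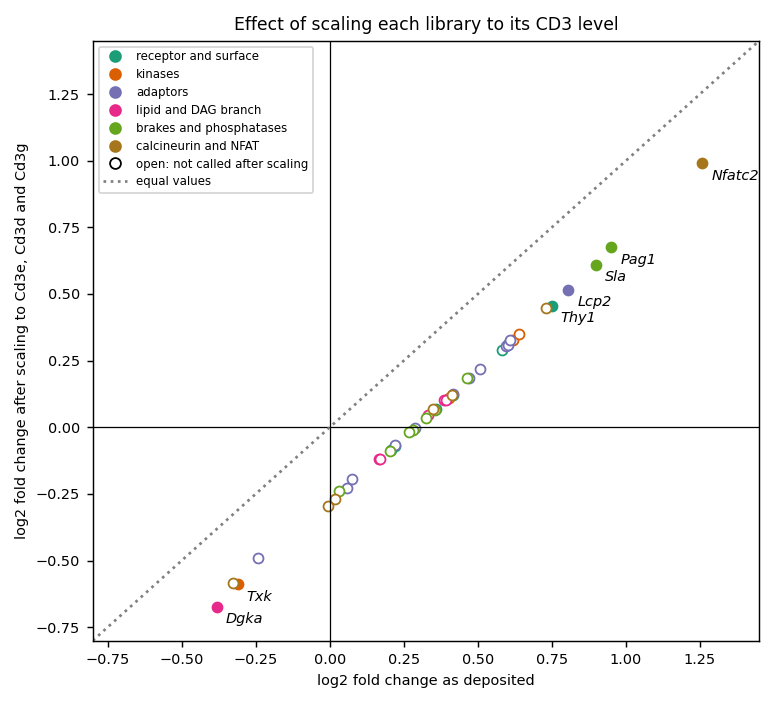
Log2 fold change of 45 members after CD3 scaling (vertical axis) against the value as deposited (horizontal axis), with filled points for a limma adjusted p under 0.05 after scaling and a dotted line of equal values. The points lie below the dotted line, *Nfatc2*, *Pag1*, *Sla*, *Lcp2* and *Thy1* remain called on the higher side, and *Dgka* and *Txk* are called on the lower side.

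Ratios of paired genes within a library were compared next, since a ratio does not move with the share of T cells where both genes come from these cells. The 8 pairs were chosen with earlier results of these data known, and ratios are of FPKM + 1. For all 8 the fractions did not overlap, the direction was the same in 4 of 4 mice, and the exact two-sided permutation test over the 70 arrangements of the libraries gave p = 0.0286, the smallest possible, which is also the Benjamini-Hochberg adjusted value over the 8. Over mice, an exact sign-flip test cannot go below 0.125. The share of such ratios among other gene pairs was not computed, so that the count describes these 8 pairs only.

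The ratio of *Dgka* to *Dgkz* differed most. It was 0.853, 1.27, 1.25 and 1.48 in flow-through libraries and 0.651, 0.655, 0.743 and 0.736 in IL-18Rα hi libraries. The means were 1.21 ± 0.263 in flow-through and 0.696 ± 0.0501 in IL-18Rα hi libraries (log2 difference -0.78). Every IL-18Rα hi library was below 1 and 3 of 4 flow-through libraries were above it. *Nfatc1* to *Nfatc2* was 3.31, 3.38, 3.08 and 3.14 in flow-through libraries and 2.15, 2.18, 2.39 and 2.25 in IL-18Rα hi libraries (log2 difference -0.53). *Nfatc1* was thus the more abundant of the pair per length in each library. *Cblb* to *Cbl* was 0.825 ± 0.0380 in flow-through and 0.612 ± 0.0214 in IL-18Rα hi libraries (log2 difference -0.43).

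The kinase and receptor ratios moved by less. *Zap70* to *Lck* was 0.189 ± 0.00258 in flow-through and 0.222 ± 0.0107 in IL-18Rα hi libraries (log2 difference 0.24), and *Fyn* to *Lck* was 0.269 ± 0.0238 in flow-through and 0.312 ± 0.0116 in IL-18Rα hi libraries (log2 difference 0.22). Both kinases were thus higher relative to *Lck* in the IL-18Rα hi fraction. *Prkch* to *Prkcq* was 0.765 ± 0.0221 in flow-through and 0.856 ± 0.0453 in IL-18Rα hi libraries (log2 difference 0.16). *Cd8b1* to *Cd8a* was 1.88 ± 0.0415 in flow-through and 1.65 ± 0.0750 in IL-18Rα hi libraries (log2 difference -0.19). Some γδ and innate-like T cells and some dendritic cells are known to carry CD8α without CD8β. The negative selection is meant to remove cells other than CD8 T cells, and what part any that remained had in this ratio was not tested. *Cd247* to *Cd3e* was 0.557 ± 0.0281 in flow-through and 0.488 ± 0.00860 in IL-18Rα hi libraries (log2 difference -0.19), with the limit given above on the strand of *Cd247*.

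**Figure D5:**
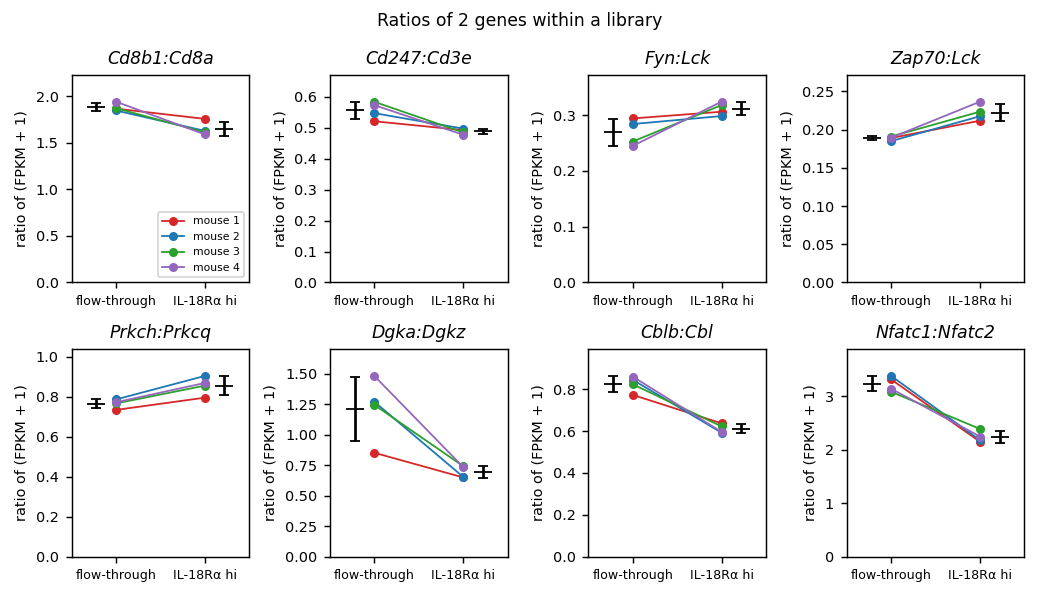
Ratio of FPKM + 1 between the genes named above each panel (vertical axis, from 0) in the flow-through and the IL-18Rα hi fraction of each mouse (1 color per mouse), with black bars for the mean ± SD of 4 libraries. In each of the 8 panels the lines of the 4 mice run the same way, and the *Dgka*:*Dgkz* ratio shows the widest spread in the flow-through.

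A longer list of 78 further genes of the pathway, from kinases of the Tec family to Ras, calcium channels and ubiquitin ligases, set these members in their context. Of the 76 that were tested, 31 were higher (40.8%) and 2 lower (2.63%), where 14.1% and 13.7% of all genes were, with a median log2 fold change of 0.27 against -0.018. Under CD3 scaling over all 8 libraries 5 were higher (6.58%) and 1 was lower (1.32%), where 4.87% and 6.43% of all genes were, so that the higher share in this fit was near that of all genes. Under CD3 scaling without flow-through library 1, 13 were higher (17.1%) and 5 lower (6.58%), where 8.33% and 11.9% of all genes were. With scaling and the block they were 2 (2.63%) and 4 (5.26%), where 5.79% and 15.7% of all genes were. Unscaled and without flow-through library 1 the numbers were 27 (35.5%) and 3 (3.95%), where 14.1% and 13.1% of all genes were. The largest rises were those of *Trat1*, a transmembrane adaptor bound to the receptor complex, and *Dok2*, an adaptor that dampens Ras signaling. *Trat1* was at 14.7, 28.5, 22.6 and 26.3 FPKM in flow-through libraries and 80.1, 58.7, 63.5 and 68.0 FPKM in IL-18Rα hi libraries (limma log2 fold change 1.54 ± 0.19, adjusted p = 0.0017). *Dok2* was at 33.4, 52.5, 40.9 and 51.7 FPKM in flow-through libraries and 102, 97.7, 88.1 and 97.8 FPKM in IL-18Rα hi libraries (limma log2 fold change 1.12 ± 0.14, adjusted p = 0.0018). For both genes the fractions were far apart in every mouse, and both were also called under CD3 scaling, with log2 fold changes of 1.26 and 0.83.

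The 2 genes called lower were *Nedd4*, a ubiquitin ligase, and *Ptpn12*, a tyrosine phosphatase of the cytoskeleton. *Nedd4* was at 123, 67.0, 85.5 and 69.6 FPKM in flow-through libraries and 47.9, 42.1, 47.9 and 40.7 FPKM in IL-18Rα hi libraries (limma log2 fold change -0.90 ± 0.18, adjusted p = 0.0094). Its highest value was in flow-through library 1, which also had the highest erythroid sum, and a link between them was not tested. Without that library the log2 fold change of *Nedd4* was -0.71 (limma adjusted p = 0.0031). *Ptpn12* was at 21.8, 19.99, 20.3 and 16.3 FPKM in flow-through libraries and 14.7, 13.4, 13.8 and 14.8 FPKM in IL-18Rα hi libraries (limma log2 fold change -0.43 ± 0.097, adjusted p = 0.013), with every IL-18Rα hi library below every flow-through library.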

How the data were processed

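RNA of 8 libraries, with 4 mice per fraction, was sequenced as stranded, paired-end poly(A) libraries. The deposited values are FPKM, which the authors computed with Cufflinks 2.1.1 after mapping filtered reads to mm10 with TopHat, with correction for multi-mapped reads and fragment bias and other options at their defaults. These defaults do not use strand, so genes that overlap on opposite strands and close paralogs are uncertain, and the annotation release is not given in the sources used here. Coordinates are from GENCODE M21, which held 98.9% of the identifiers, 95.4% of these under the same name. The fraction and the number of each library were read from its label. That an equal number means the same mouse was assumed. Deviations from the fraction means correlated at 0.308 to 0.66 between the libraries of 1 mouse and at -0.6 to 0.412 between those of different mice, and 8 of 8 libraries correlated best with their own number.

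The test was limma (version 3.58.1, R 4.3.3), applied to log2(FPKM + 1) with a variance trend and no mouse block. It ran over the 12166 genes that averaged 1 FPKM or more, at a Benjamini-Hochberg adjusted p of 0.05 over all of them. A fold change on this scale understates that of low genes. FPKM carry no counts, so no count model or counting interval was used. The members, the list of further pathway genes, the gene pairs for ratios and the marker lists (NK, γδ, CD4, B, myeloid and erythroid) were chosen with earlier results of these data known. Each member is named at least once. Those called, the CD3 and CD8 chains, *Lck*, *Zap70* and *Lat* are given in full. So are the 2 largest changes in each direction among the further genes that were called. Library values are also given for *Cd247*, *Txk*, *Sos1*, *Dgka*, *Cblb* and *Rcan1*, which were not called in this test and lie outside that rule. Scripts were tested on simulated data. Alternatives were a mouse block, pseudocounts, filters, quantile and CD3 scaling, no variance trend and left-out libraries. Combinations of CD3 scaling with the block or without flow-through library 1, and the block over mice 2 to 4, were added after seeing the data.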

Additional observations from a re-analysis of the deposited data

Results flagged for a closer look

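Over the 48 members, the 8 ratios and both fractions, 112 groups of 4 values were examined for a value far from the other 3 by Dixon's criterion, and 4 groups held one, where chance alone gives about 5.6. All 4 concern the IL-18Rα hi library of mouse 1. *Lck* was at 452.6 FPKM in it and at 426 to 429 FPKM in the other IL-18Rα hi libraries. *Grap2* was at 53.7 FPKM in it and at 56.4 to 56.5 FPKM in the others. *Cbl* was at 19.4 FPKM in it against 25.0 to 26.0 FPKM, and *Cblb* at 12.0 FPKM against 14.6 to 15.2 FPKM. The low *Cbl* and *Cblb* values left the ratio of these genes in that library close to its fraction, at 0.637 against 0.592 to 0.622. Flow-through library 1, which was the lowest of its fraction for most members, did not pass the criterion for any member.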

How the results depend on the processing

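The count of 20 higher members was the same with a pseudocount of 0.1 or a mean of at least 5 FPKM, and was 17 under quantile normalization, 19 without the variance trend, 13 without a filter (where 7.32% of all genes were higher, against 14.1%), 5 under CD3 scaling, 3 under CD3 scaling with the mouse block and 12 under CD3 scaling without flow-through library 1. The share of all genes called higher was 13.8% to 14.4% in the 4 settings of this list with 17 to 20 members. Leaving out single libraries or both of a mouse gave 4 to 20, with 4 without mouse 3 (3.72% of all genes), 8 without mouse 4 (7.04%), 12 without mouse 2 (9.07%), 11 without flow-through library 3 or IL-18Rα hi library 2 or 4 (9.24% to 9.49%), 12 without IL-18Rα hi library 3 (9.87%) and 13 without IL-18Rα hi library 1 (12.8%), where fewer libraries were fitted. Against no lower member, there were 1 with the block, without the variance trend (*Sos1*) and under CD3 scaling with the block, 2 under CD3 scaling, under it without flow-through library 1 and with the block over mice 2 to 4, and 0 to 2 over left-out libraries. Of the further pathway genes, 31 were higher, against 5, 2 and 13 in the CD3-scaled fits and 6 to 32 over left-out libraries, and 2 lower, against 1, 4 and 5 in the scaled fits, 4 with the block, 6 with the block over mice 2 to 4 and 0 to 4 over left-out libraries. Apart from the calls named in the report, the mouse block changed no call of a member.

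Log2 fold changes of uncalled members, and of *Grb2* and *Ubash3a*, changed sign in some settings. Under CD3 scaling, with and without the block, they were -0.085 for *Cd247*, -0.071 for *Cd8b1*, -0.23 for *Grap2*, -0.002 for *Grb2*, -0.067 for *Vav1*, -0.20 for *Nck2*, -0.12 for *Plcg1*, -0.12 for *Prkcq*, -0.24 for *Cblb*, -0.0097 for *Ptpn6*, -0.090 for *Ptprc*, -0.018 for *Ubash3a* and -0.27 for *Ppp3cb*. Under CD3 scaling without flow-through library 1 they were -0.11 for *Cd247*, -0.090 for *Cd8b1*, -0.22 for *Grap2*, -0.044 for *Vav1*, -0.046 for *Nck2*, -0.069 for *Plcg1*, -0.082 for *Prkcq*, -0.20 for *Cblb*, -0.11 for *Ptprc* and -0.072 for *Ppp3cb*. With the block over mice 2 to 4 they were -0.11 for *Cd3d*, -0.034 for *Cd247*, -0.042 for *Cd8b1*, -0.11 for *Grap2*, -0.015 for *Prkcq*, -0.035 for *Cblb* and -0.003 for *Ppp3cb*, and under quantile normalization it was -0.021 for *Ptprc*. Over left-out libraries the ranges were -0.11 to 0.21 for *Cd3d*, -0.034 to 0.31 for *Cd247*, -0.042 to 0.36 for *Cd8b1*, -0.12 to 0.16 for *Grap2*, -0.015 to 0.27 for *Prkcq*, -0.11 to 0.11 for *Cblb*, -0.012 to 0.30 for *Ptprc*, -0.027 to 0.095 for *Ppp3cb* and -0.048 to 0.036 for *Ppp3r1*.

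The log2 ratio differences kept their direction. Paired by mouse as a block, they are the same values (-0.19, -0.19, 0.22, 0.24, 0.16, -0.78, -0.43 and -0.53 in the order *Cd8b1*:*Cd8a*, *Cd247*:*Cd3e*, *Fyn*:*Lck*, *Zap70*:*Lck*, *Prkch*:*Prkcq*, *Dgka*:*Dgkz*, *Cblb*:*Cbl* and *Nfatc1*:*Nfatc2*), and the exact sign-flip p of 0.125 cannot pass. Over left-out libraries they ranged from -0.22 to -0.18 for *Cd8b1* to *Cd8a*, -0.22 to -0.16 for *Cd247* to *Cd3e*, 0.17 to 0.26 for *Fyn* to *Lck*, 0.13 to 0.20 for *Prkch* to *Prkcq* and -0.94 to -0.67 for *Dgka* to *Dgkz*. The exact permutation p, adjusted over 8 ratios, then reached 0.0571 for these 5 and 0.0457 for the other 3.

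The main limits are that depth is unknown, that 4 mice per fraction were measured, and that the pairing by mouse rests on the library numbers. Further, 1 flow-through library was low for most members. The fractions also differed in genes listed as markers of other cells, some of which the study reports as raised in the IL-18Rα hi CD8 T cells. The cause of the changes under CD3 scaling was not tested.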
